A study of Mus musculus with 16 samples.

Results

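Among 24176 gene symbols in RNA-sequencing profiles of mouse brain, 9 genes were examined. They were selected as lower in libraries labelled knockout for Rai1 in several regions or ages. They are Fstl5, Brinp3, Olfm3, Gpr101, Gpr149, Kctd8, Syt10, Mgat4c and Mme. Large adhesion and receptor families were to be left out, but Gpr101 and Gpr149 encode orphan G protein-coupled receptors. The choice had no numeric threshold and used the difference between the libraries labelled knockout and those labelled wild type. That difference is therefore given below as a description, with no test. All 9 were among the 12348 genes with at least 1 RPKM (reads scaled for transcript length and sequencing depth) in at least 2 libraries. The tests below concern region and age, which the choice did not use, and relatives of the 9 genes.

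The 16 libraries form 4 sets, each with 2 libraries labelled wild type and 2 labelled knockout. Cortex at 3 weeks of age was compared between wild-type mice and mice labelled Nestin-Cre;Rai1CKO, where Nestin-Cre acts in neural progenitors and so in most neurons and glia. Striatum at 3 weeks and at 12 weeks was compared between wild-type mice and mice labelled Gad2-Cre;Rai1CKO, where Gad2-Cre acts in GABAergic neurons. In these 3 sets all mice, wild type included, were B6/FVB F1 animals. Hypothalamus at 8 weeks was compared between wild-type mice and mice labelled Vglut2-Cre;Rai1CKO, both B6/129 F1, where Vglut2-Cre acts in glutamatergic neurons that express Vglut2. In striatum and hypothalamus the tissue thus also held cells outside the driver's reach, and fewer cells of a type cannot be told apart from less RNA per cell in these bulk samples. Whether the wild-type mice carried a Cre or a floxed allele is not stated in the labels, and neither is whether replicates came from separate animals.

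Rai1 encodes a nuclear, chromatin-associated protein, and loss of a copy of the human gene causes Smith-Magenis syndrome. The 9 genes do not form a pathway. Fstl5, Olfm3 and Brinp3 encode proteins with a secretory signal: a follistatin-like protein, an olfactomedin-domain glycoprotein found at synapses, and a member of the BMP/retinoic acid-inducible neural-specific family. Gpr101 and Gpr149 encode orphan G protein-coupled receptors, and Kctd8 an auxiliary subunit of the GABAB receptor that shapes its response. Syt10 encodes a calcium sensor of the synaptotagmin family, Mgat4c a Golgi glycosyltransferase related to the enzymes that branch N-glycans, and Mme neprilysin, a membrane peptidase that degrades neuropeptides and amyloid beta.

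Rai1 itself was at 4.35 and 5.70 RPKM in wild-type cortex and at 4.28 and 3.03 in the cortical libraries labelled knockout. In the other 3 sets it was higher in the libraries labelled knockout: 6.52 and 7.01 against 3.77 and 3.24 in striatum at 3 weeks, 12.3 and 13.3 against 5.08 and 4.88 at 12 weeks, and 8.47 and 6.52 against 3.68 and 3.99 in hypothalamus. Which exons were deleted is not given by the labels, so its RPKM does not check the labels, and the directions below are those of the libraries as labelled. Depth, estimated from the smallest RPKM steps among single-exon genes, was 43418477 to 71270685 reads per library. By this estimate the 9 genes had from about 68 reads (Gpr149 in a cortical library labelled knockout) to about 6161 (Gpr101 in hypothalamus) per library.

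Promoter sequences are shown for 4 of the genes: Fstl5, Kctd8 and Gpr101, which were separated (both libraries labelled knockout below both of wild type) in all 4 sets, and Syt10, separated in only 2. Each runs 5′ to 3′ on the gene's strand from 250 bases before to 50 bases after a RefSeq start in GRCm38.p6, and capitals mark the motifs found. These are chr3:76074311-76074610 on the plus strand (Fstl5, the first of 2 starts), and, on the minus strand, chr5:69341660-69341959 (Kctd8), chrX:57503708-57504007 (Gpr101) and chr15:89841811-89842110 (Syt10).
Fstl5: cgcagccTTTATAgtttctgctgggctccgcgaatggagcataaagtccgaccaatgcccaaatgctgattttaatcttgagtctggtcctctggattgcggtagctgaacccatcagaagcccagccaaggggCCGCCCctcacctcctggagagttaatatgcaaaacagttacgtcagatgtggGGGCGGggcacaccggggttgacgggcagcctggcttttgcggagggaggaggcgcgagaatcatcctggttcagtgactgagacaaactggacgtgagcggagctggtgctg
Kctd8: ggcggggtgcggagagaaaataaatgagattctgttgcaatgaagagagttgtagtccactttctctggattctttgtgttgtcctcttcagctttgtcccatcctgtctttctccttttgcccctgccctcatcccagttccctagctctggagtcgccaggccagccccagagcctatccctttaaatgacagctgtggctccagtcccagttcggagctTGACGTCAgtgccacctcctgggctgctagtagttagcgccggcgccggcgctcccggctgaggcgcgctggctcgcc
Gpr101: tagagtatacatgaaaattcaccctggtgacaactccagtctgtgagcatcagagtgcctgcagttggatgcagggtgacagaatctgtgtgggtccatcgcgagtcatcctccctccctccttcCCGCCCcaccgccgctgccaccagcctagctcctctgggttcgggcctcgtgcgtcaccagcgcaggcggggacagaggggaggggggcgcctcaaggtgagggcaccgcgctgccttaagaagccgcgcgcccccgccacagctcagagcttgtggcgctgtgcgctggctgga
Syt10: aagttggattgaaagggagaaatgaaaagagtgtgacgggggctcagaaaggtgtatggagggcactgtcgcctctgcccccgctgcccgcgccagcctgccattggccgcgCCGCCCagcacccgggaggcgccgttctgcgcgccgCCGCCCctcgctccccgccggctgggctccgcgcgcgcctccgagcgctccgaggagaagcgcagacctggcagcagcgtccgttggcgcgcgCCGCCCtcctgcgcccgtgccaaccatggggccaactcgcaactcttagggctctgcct
The motifs searched on both strands were the cAMP response element TGACGTCA, the E-box CACGTG, the GC box GGGCGG, the TATA box TATAAA and the AP-1 site TGANTCA. The reference table held 17 promoters of 8 of the 9 genes, all but Gpr149. A GC box was present in 8 of these 17 promoters (6 of the 8 genes) and in 35.7% of all 32851 promoters of the same length. Starts of 1 gene can overlap, so the 17 are not independent. In the sequences above, the capitals are GC boxes in Gpr101 (1) and Syt10 (3), and 2 GC boxes and a TATA box on the opposite strand in Fstl5. Kctd8 alone among the 8 genes held the cAMP response element, with its first base 28 bases before the start. That element was in 1.79% of all promoters. Of the 17 promoters, 2, both of Mme, held an AP-1 site (7.81% of all promoters), 2 a TATA box, in Fstl5 and Mgat4c (13.6%), and none an E-box (7.15%). The GC content was 56.7% for the Fstl5 promoter shown, 57.7% for Kctd8, 64.3% for Gpr101 and 70.7% for Syt10, beside medians of 49.0% over the 17 promoters and 52.7% over all. None of the 5 motifs was found in all 8 genes, and a match is a description of letters only.

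Fstl5 was lower in both libraries labelled knockout of every set. In cortex its level was 4.28 and 3.91 RPKM in the wild-type libraries and 2.60 and 2.23 in those labelled knockout. In striatum it was 2.37 and 2.80 against 1.23 and 0.993 at 3 weeks, and 1.70 and 2.14 against 0.912 and 1.08 at 12 weeks. In hypothalamus, where it was highest, it was 11.2 and 13.4 against 7.52 and 8.22. The groups did not overlap in any set, and the mean level labelled knockout was 0.590, 0.431, 0.520 and 0.642 times that of wild type, in the order of the sets above. On the log2(RPKM + 0.5) scale, the differences were -0.66, -0.94, -0.69 and -0.61 (SE 0.15 each).

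Brinp3 was also separated in all 4 sets. Its cortical level was 7.97 and 7.60 RPKM in wild type and 5.38 and 4.24 in the libraries labelled knockout. In striatum it was 4.91 and 4.14 against 1.93 and 1.85 at 3 weeks, and 2.64 and 3.01 against 1.55 and 1.49 at 12 weeks. In hypothalamus it was 12.5 and 12.0 against 9.49 and 9.79. The ratio of means was smallest in striatum at 3 weeks (0.418) and nearest to 1 in hypothalamus (0.785). The corresponding log2 differences were -1.07 and -0.33 (SE 0.13). In the annotation an exon of Brinp3 overlaps the predicted gene Gm29514, and how reads in such overlaps were counted is not stated.

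Olfm3 was separated in 3 sets and overlapped in striatum at 3 weeks. There the wild-type libraries had 3.05 and 3.90 RPKM and those labelled knockout 3.30 and 2.77. In cortex it was at 6.99 and 6.48 against 3.72 and 4.54, and in hypothalamus at 10.5 and 11.5 against 7.87 and 8.74. In striatum at 12 weeks the wild-type libraries lay apart from each other, at 2.84 and 4.50, and those labelled knockout at 1.98 and 1.99. The log2 difference of -0.72 (SE 0.18) in that last set was -0.43 without wild-type replicate 2 and -1.01 without replicate 1.

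The receptor gene Gpr101 had the lowest ratio of means of the 9 genes in any set. In striatum at 3 weeks its level was 1.45 and 2.54 RPKM in wild type and 0.757 and 0.623 in the libraries labelled knockout, a ratio of 0.346. At 12 weeks it was 1.18 and 0.898 against 0.532 and 0.745. In cortex it was 2.07 and 2.54 against 1.77 and 1.19, and in hypothalamus 20.7 and 24.4 against 15.6 and 17.8. The groups did not overlap in any set. The log2 difference in striatum at 3 weeks, -1.04 (SE 0.21), was -0.72 without wild-type replicate 2 and -1.35 without replicate 1, so the size there rested on which wild-type library was used.

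Gpr149, the other orphan receptor, was low in cortex, at 0.446 and 0.816 RPKM in wild type and 0.468 and 0.276 in the libraries labelled knockout, and these groups overlapped. In striatum it was at 1.99 and 3.15 against 1.12 and 1.38 at 3 weeks. At 12 weeks it was at 1.68 in both wild-type libraries and at 0.816 and 0.878 in those labelled knockout, a ratio of 0.504, the lowest of the 9 genes in that set. In hypothalamus it was at 3.38 and 3.61 against 2.67 and 3.09. The log2 difference at 3 weeks in striatum, -0.79 (SE 0.19), was -0.51 without wild-type replicate 2 and -1.07 without replicate 1. In cortex the difference of -0.36 (SE 0.19) was -0.13 without wild-type replicate 2 and -0.60 without replicate 1.

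Kctd8, the GABAB receptor subunit, had its widest gap in striatum at 3 weeks, with 5.75 and 7.25 RPKM in wild type and 2.70 and 2.93 in the libraries labelled knockout. At 12 weeks it was at 4.97 and 6.03 against 3.77 and 3.10. In hypothalamus it was at 3.55 and 3.92 against 3.10 and 2.81. In cortex the lower wild-type library (1.36, the other at 2.07) lay just above the higher library labelled knockout (1.29, the other at 0.933). The ratios of means were 0.433, 0.624, 0.791 and 0.648 in that order. The cortical log2 difference of -0.45 (SE 0.18) was -0.22 without wild-type replicate 2 and -0.68 without replicate 1. An exon of Kctd8 overlaps the small RNA gene Gm24368 in the annotation.

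Syt10, the vesicle calcium sensor, was separated only at 3 weeks. In cortex the wild-type libraries had 3.12 and 3.67 RPKM and those labelled knockout 1.81 and 1.96, and in striatum it was at 2.02 and 2.33 against 1.41 and 1.52. At 12 weeks in striatum it was at 2.38 and 2.51 against 2.33 and 2.76, and in hypothalamus at 4.66 and 5.87 against 4.45 and 5.56, and both of these sets overlapped. The log2 differences were -0.70, -0.44, 0.04 and -0.07 (SE 0.15 each), and the sign of the last pair changed with the scaling or the library left out, as given in the closing section.

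Mgat4c, the glycosyltransferase, was separated in all 4 sets at low levels. Its cortical level was 1.43 and 1.21 RPKM in wild type against 0.865 and 0.710, and at 2.54 and 2.80 in hypothalamus against 1.85 and 1.95. In striatum it was at 0.652 and 0.767 against 0.510 and 0.460 at 3 weeks, and at 1.08 and 1.04 against 0.543 and 0.642 at 12 weeks. The ratios of means were 0.596, 0.711, 0.684 and 0.559 in that order.

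Mme, the neprilysin gene, differed from the other 8 genes in striatum at 3 weeks, where both libraries labelled knockout (4.20 and 4.60 RPKM) lay above both of wild type (3.87 and 4.19), by a gap between the nearest libraries far smaller than the spread within either group. At 12 weeks the order was the opposite, with 6.72 and 7.70 in wild type and 4.76 and 4.34 in the libraries labelled knockout. In cortex it was at 0.922 and 0.807 against 0.538 and 0.414, and in hypothalamus at 1.05 and 1.19 against 0.989 and 0.931. The 2 log2 differences in striatum were 0.11 and -0.61 (SE 0.13 each), the first within 1 SE of 0. The difference between them was -0.72 (SE 0.18), and it is not tested because the choice of the genes used both contrasts. With median-ratio scaling of the libraries, the 2 log2 differences were 0.24 at 3 weeks and -0.71 at 12 weeks.

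**Figure D1:**
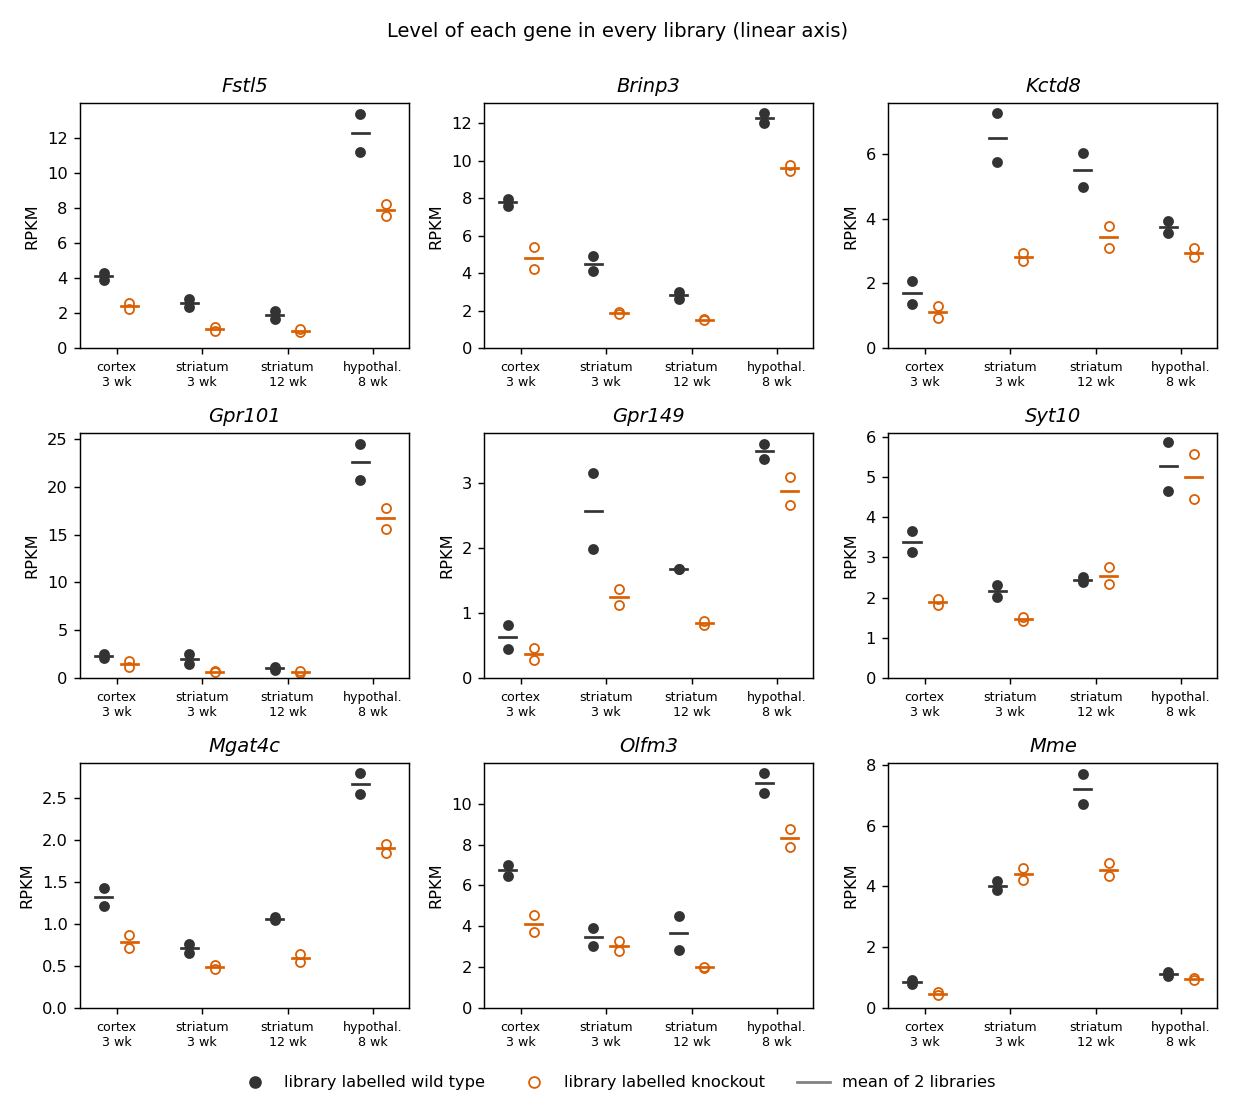
RPKM (vertical axis, linear, from 0) of each of the 9 genes in every library, by region and age (horizontal axis); filled points are wild-type libraries, open points libraries labelled knockout and bars the mean of 2 libraries. The open points lie below the filled ones in 31 of 36 gene and set pairs, and in Mme they lie above them in striatum at 3 weeks.

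Over the 9 genes, both libraries labelled knockout lay below both of wild type in 8 genes in cortex, where 21.6% of all genes tested did, and in 7 genes in striatum at 3 weeks (23.9% of all genes). The count was 8 genes in striatum at 12 weeks (8.16% of all genes) and 8 in hypothalamus (24.6% of all genes). The choice fixed these counts, so nothing is read from them. Fstl5, Brinp3, Kctd8, Gpr101 and Mgat4c were separated in all 4 sets, Gpr149, Olfm3 and Mme in 3, and Syt10 in 2. The ratio of means had a median of 0.596 in cortex (0.551 for Mme to 0.648 for Kctd8), and of 0.486 in striatum at 3 weeks (0.346 for Gpr101 to 1.09 for Mme). It was 0.559 in striatum at 12 weeks (0.504 for Gpr149 to 1.04 for Syt10) and 0.785 in hypothalamus (0.642 for Fstl5 to 0.951 for Syt10). The cortical ratios thus had the narrowest range and the hypothalamic ones the median nearest to 1.

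On the log2(RPKM + 0.5) scale the median difference of the 9 genes was -0.52 in cortex, -0.79 in striatum at 3 weeks, -0.61 at 12 weeks and -0.33 in hypothalamus. The medians of all genes tested in these sets were -0.02, -0.13, 0.08 and -0.06. Scaling the libraries to equal median ratios moved the all-gene median by 0.12 in striatum at 3 weeks and by less in the other sets. After that scaling the 9 genes had a median of -0.68 in striatum at 3 weeks, with 8 of 9 below 0. Averaged over the 4 sets, the differences ran from -0.28 (Mme) and -0.29 (Syt10) to -0.69 (Brinp3) and -0.72 (Fstl5).

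**Figure D2:**
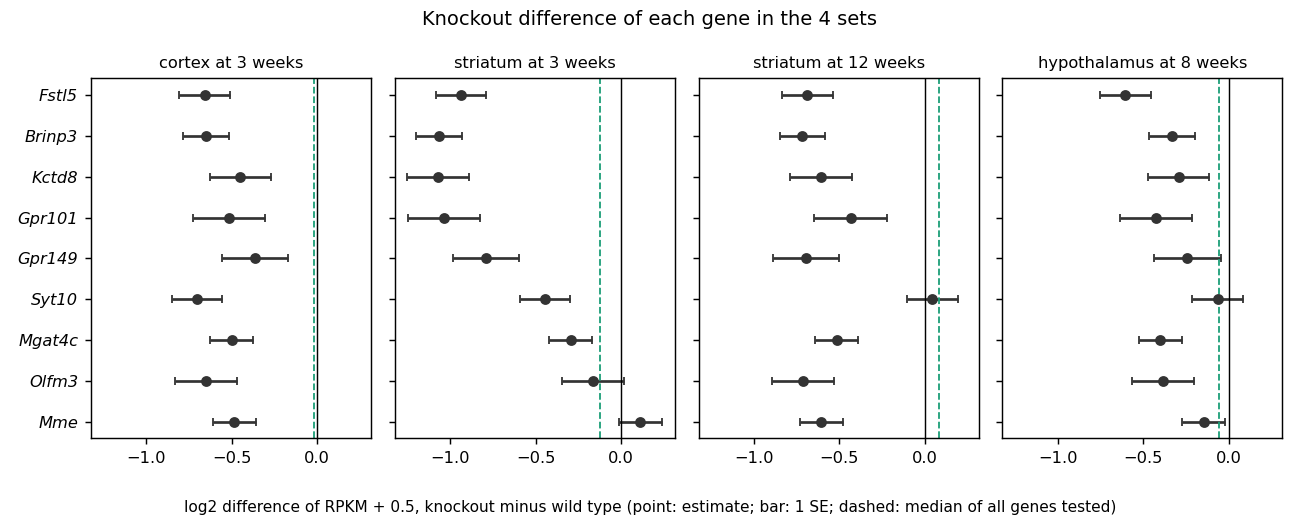
Log2 difference of RPKM + 0.5 between libraries labelled knockout and wild type (horizontal axis) for each gene (vertical axis) in the 4 sets; points are estimates, bars 1 SE and the dashed line the median of all genes tested. Syt10 lies at 0.04 in striatum at 12 weeks and Mme at 0.11 in striatum at 3 weeks, while the other points of these sets lie below 0.

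How the difference varied between sets was described without a test. Between striatum at 12 and at 3 weeks, the knockout difference was nearer to 0 at 12 weeks for Gpr101 (by 0.60, SE 0.30), Syt10 (0.49, SE 0.21), Kctd8 (0.46, SE 0.25) and Brinp3 (0.35, SE 0.19). It was farther below 0 at 12 weeks for Olfm3 (by -0.55, SE 0.26), and for Mme it was 0.11 at 3 weeks and -0.61 at 12 weeks (a change of -0.72, SE 0.18). The change between the ages was 0.25 for Fstl5 (SE 0.21), 0.09 for Gpr149 (SE 0.28) and -0.22 for Mgat4c (SE 0.18).

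The tissue labels matched their markers: striatal projection neuron markers summed to 837.6 to 1267 RPKM in striatum, and to at most 126.2 elsewhere. Markers of neighbouring tissue and of other cells differed between libraries, and their part in these values was not tested. In striatum at 3 weeks, 10 cortical excitatory neuron markers summed to 6.66 and 10.9 RPKM in wild type and to 23.1 and 14.7 in the libraries labelled knockout. At 12 weeks they summed to 7.97 and 19.3 against 6.26 and 5.32. Of the 2 wild-type libraries, the one with 19.3 had the higher level of 6 of the 9 genes (Fstl5, Brinp3, Kctd8, Syt10, Olfm3 and Mme). Its median-ratio scaling factor, which follows the level of genes in general, was also higher (0.942 against 0.768). The share over all genes was not computed. Of the 6, Kctd8 and Mme were lower in wild-type cortex than in striatum, as tested below. In cortex the same markers summed to 205.0 to 225.7 RPKM over all 4 libraries. Fstl5, Brinp3, Syt10, Mgat4c and Olfm3 were higher in wild-type cortex than in striatum, as tested below. The first 4 of these genes lay lower in the 3-week striatal libraries labelled knockout, and Olfm3 overlapped there. Whether the cortical marker sums bear on these levels was not tested.

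In cortex, 9 striatal projection neuron markers summed to 108.7 and 126.2 RPKM in wild type and to 93.8 and 71.3 in the libraries labelled knockout. Kctd8, Gpr149 and Mme, whose levels were higher in striatum than in cortex, have their cortical differences beside these sums. Oligodendrocyte markers (7 genes) also differed in cortex, at 630.4 and 733.1 against 1151 and 1109 RPKM. In striatum at 3 weeks, 5 markers of ventral striatum and olfactory tubercle summed to 39.0 and 68.5 in wild type and to 21.9 and 41.7 in the libraries labelled knockout, which overlap. Most of each sum was Crym (34.9 and 60.9 against 16.9 and 36.7). Dlk1 lay higher in the libraries labelled knockout (0.700 and 0.664 against 0.265 and 0.460), and Cartpt, Drd3 and Peg10 overlapped. Of the 2 wild-type libraries, the one with 68.5 had the higher level of 8 of the 9 genes, all but Brinp3. Its median-ratio scaling factor, which follows the level of genes in general, was also higher (1.07 against 0.962). Of the 2 libraries labelled knockout, the one with 41.7 had the higher level of 4 of the 9 genes, with factors of 0.996 against 0.844. The shares over all genes were not computed. The 9 hypothalamic markers summed to 7.42 RPKM in 1 cortical library labelled knockout and to at most 0.868 in the other cortical and all striatal libraries, against 216.3 to 264.3 in hypothalamus. In hypothalamus the sums of these 9 markers were 244.1 and 264.3 in wild type and 253.8 and 216.3 in the libraries labelled knockout, which overlap. Other lists did not overlap there: 8 GABAergic interneuron markers summed to 45.7 and 55.5 in wild type and to 36.5 and 43.1 in the libraries labelled knockout, and the striatal projection neuron markers to 46.5 and 49.6 against 35.6 and 38.4. Other lists in hypothalamus lay higher in both libraries labelled knockout. Oligodendrocyte markers summed to 749.3 and 728.0 against 753.8 and 879.9, and those of ventral striatum and olfactory tubercle to 55.3 and 64.0 against 68.2 and 64.3. Cortical excitatory neuron markers summed to 19.8 and 20.9 against 21.4 and 21.9, and choroid plexus markers to 4.36 and 4.29 against 4.54 and 4.56. The remaining lists overlapped there. In striatum at 3 weeks, 5 astrocyte markers summed to 192.7 and 186.8 against 140.0 and 165.4 RPKM and 6 microglia markers to 72.5 and 65.8 against 39.3 and 58.7. In cortex, 5 choroid plexus markers summed to 11.9 and 19.1 against 27.0 and 26.3. No marker of any list outside the hypothalamic one was at 0 in both libraries of a group.

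The region of highest level differed among the genes. In wild type at 3 weeks, 5 of the 9 genes were higher in cortex than in striatum and 3 lower by limma, where 43.5% of all genes tested were called in either direction. Of all genes, 2545 were called higher and 2823 lower in cortex. Olfm3 was higher in cortex by 0.87 on the log2 scale (SE 0.18, adjusted p = 0.00174), Brinp3 by 0.73 (SE 0.13, adjusted p = 0.000705) and Mgat4c by 0.59 (SE 0.13, adjusted p = 0.00209). Fstl5 (0.58, adjusted p = 0.00654) and Syt10 (0.54, adjusted p = 0.00991) were also higher, but Fstl5 lost the call without cortical replicate 1 (adjusted p = 0.0536) or striatal replicate 1 (0.0551). Syt10 lost it without cortical replicate 2 (adjusted p = 0.0816) or striatal replicate 1 (0.0674). Mme (-1.73, adjusted p = 2.78e-07), Kctd8 (-1.67, adjusted p = 8.39e-06) and Gpr149 (-1.43, adjusted p = 6.14e-05) were lower in cortex. Gpr101 was at 2.31 ± 0.337 RPKM in cortex and 2.0 ± 0.768 in striatum (SD, n = 2), and the difference of 0.20 did not pass (limma adjusted p = 0.462). The median of the 9 genes was 0.54 and that of all genes -0.08. The same wild-type libraries served the choice of the genes.

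**Figure D3:**
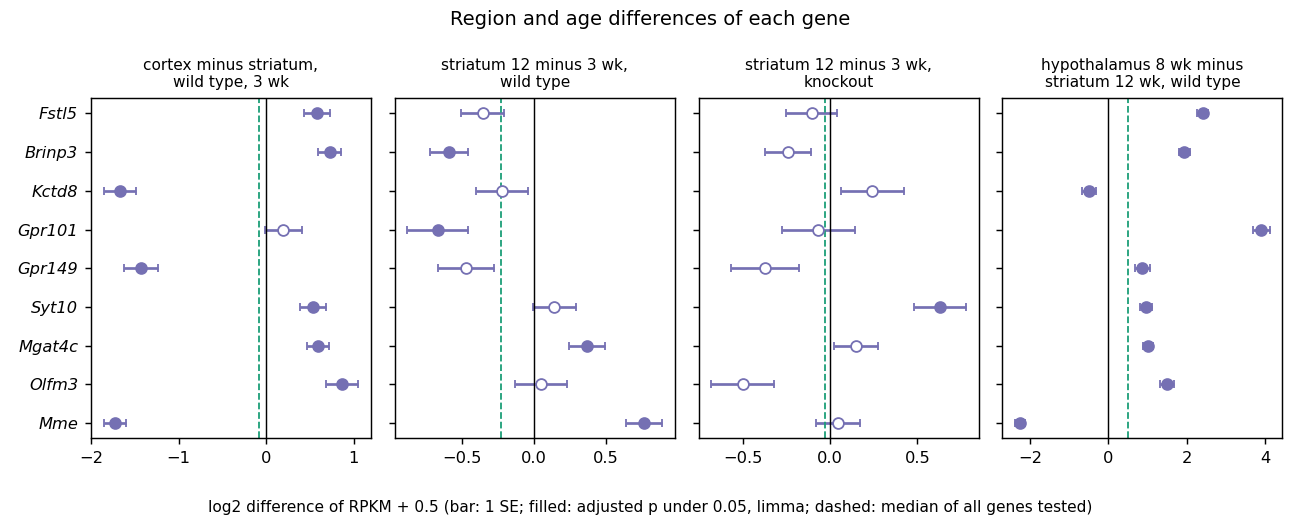
Log2 difference of RPKM + 0.5 (horizontal axis, with its own range in each panel) for each gene (vertical axis) between regions and ages; bars are 1 SE, filled points passed limma at an adjusted p of 0.05 and the dashed line is the median of all genes tested. Kctd8, Gpr149 and Mme lie to the left in the cortex panel, and Gpr101 lies farthest right, at 3.91, in the hypothalamus panel.

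Between wild-type hypothalamus at 8 weeks and wild-type striatum at 12 weeks, 7 of the 9 genes were higher and 2 lower in hypothalamus (limma, 64.8% of all genes called). Of all genes, 6731 were called higher and 1265 lower in hypothalamus. Strain and age differ with region here and cannot be told apart from it. Gpr101 was at 22.6 ± 2.60 RPKM in hypothalamus and 1.04 ± 0.200 in striatum (SD, n = 2), higher by 3.91 on the log2(RPKM + 0.5) scale (SE 0.21, limma adjusted p = 6.56e-09). Fstl5 (2.40), Brinp3 (1.94), Olfm3 (1.49), Mgat4c (1.02), Syt10 (0.96) and Gpr149 (0.87) were also higher, with adjusted p from 1.86e-08 to 0.0016. Mme (-2.25, adjusted p = 9.05e-09) and Kctd8 (-0.50, adjusted p = 0.0260) were lower. The Kctd8 call was lost without striatal replicate 2 (adjusted p = 0.147), hypothalamic replicate 1 (0.121) or replicate 2 (0.0595). The median of all genes was 0.49 in this comparison. Scaling to equal median ratios removed that shift, after which the median of the 9 genes was 0.57 and Gpr149 (0.39, adjusted p = 0.0643) no longer passed.

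Fewer of the genes passed between ages. In wild-type striatum 4 of the 9 passed between 12 and 3 weeks (limma, 31.5% of all genes called), 2 in each direction. Of all genes, 884 were called higher and 3011 lower at 12 weeks. The choice of the genes used these libraries too, on the other side of its contrast. Mme, at 4.03 ± 0.227 RPKM at 3 weeks, rose to 7.21 ± 0.694 at 12 weeks (SD, n = 2), a log2 difference of 0.76 (SE 0.13, limma adjusted p = 0.000792). Brinp3 fell by 0.59 (adjusted p = 0.00548) and Gpr101 fell by 0.67 (adjusted p = 0.0293), while Mgat4c rose by 0.37 (adjusted p = 0.0398). The all-gene median was -0.23, and it moved by 0.20 when libraries were scaled to equal median ratios. After that scaling Gpr101 no longer passed (-0.48, adjusted p = 0.0676). Without any filter on low values neither Gpr101 (adjusted p = 0.0613) nor Mgat4c (0.0510) passed. Leaving out single libraries ended the call of Brinp3 (adjusted p = 0.0566 without replicate 1 of 12 weeks), of Mgat4c (0.0735 to 0.167 for each of the 4 libraries) and of Gpr101 (0.0628 to 0.318 for 3 of them). The Mme call held in each of these 4 cases. Gpr149 passed without replicate 1 of 3 weeks (-0.75, adjusted p = 0.0238) and Fstl5 without replicate 2 of 12 weeks (-0.49, adjusted p = 0.0467), although neither passed over all libraries (0.0809 and 0.0822).

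In the libraries labelled knockout, 1 of the 9 genes, Syt10, was called for age (limma, 11.8% of all genes called). The choice of the genes used these libraries, so this call is not independent of it and is given as a description. Syt10 was at 1.46 ± 0.0753 RPKM at 3 weeks and 2.54 ± 0.306 at 12 weeks (SD, n = 2), a log2 difference of 0.63. In wild type it was at 2.17 ± 0.214 and 2.45 ± 0.0918, a difference of 0.14, and the remaining 0.49 (SE 0.21) is the change of its knockout difference between the ages. Mme was at 4.40 ± 0.285 and 4.55 ± 0.298 RPKM in these libraries, a difference of 0.05, beside its rise in wild type. Olfm3 was at 3.04 ± 0.372 and 1.99 ± 0.00832, a difference of -0.50. Whether age effects differed between the genotypes was not tested, because it is the same quantity as the change of the knockout difference between ages.

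In wild type the hypothalamus had the highest level of 7 genes, Kctd8 was highest in striatum at 3 weeks and Mme in striatum at 12 weeks. Among neighbours in these orders the libraries overlapped for Kctd8 between the 2 striatal ages, for Gpr101 between cortex and striatum at 3 weeks, and for Olfm3 between the 2 striatal ages. All other neighbours were separate, with 2 libraries each. In the libraries labelled knockout the hypothalamus also had the highest level of 7 genes, and striatum at 12 weeks that of Kctd8 and Mme, where the libraries of Mme overlapped those of 3 weeks. The shares of all genes with such orders or separations were not computed. The median-ratio scaling factors, which follow the level of genes in general, were 1.24 and 1.31 in wild-type hypothalamus. In the other wild-type libraries they ran from 0.768 to 1.07. Hypothalamus also differs from the other sets in strain and age.

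As a description over the 8 wild-type libraries, which share regions, log2 profiles were compared by Pearson r. Within the 9 genes the highest value was between Gpr101 and Fstl5 (r = 0.970) and the lowest between Mme and Brinp3 (r = -0.917). Among all genes tested, the most alike to Kctd8 were the striatal neuropeptide genes Pdyn (r = 0.993) and Tac1 (r = 0.990), and to Mme the genes Dach1 (r = 0.993) and Kcnd2 (r = 0.992). For Fstl5 they were Tcerg1l (r = 0.997) and Zfp811 (r = 0.996), for Brinp3 Dpyd and Parva (both r = 0.993), and for Olfm3 Fam169a (r = 0.998) and AA414768 (r = 0.995). For Gpr101 they were AW551984 (r = 0.997) and Zfp783 (r = 0.995), and for Gpr149 Dhrs13 and Snf8 (both r = 0.985). For Syt10 they were Gab2 (r = 0.990) and Hdac7 (r = 0.989), and for Mgat4c Zfyve16 (r = 0.994) and Ocrl (r = 0.993).

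Relatives of the 9 genes were not chosen on the knockout difference, so theirs was tested. The list of relatives was, however, drawn up with earlier results of these data known. Of 93 listed relatives in 8 families, 81 were tested, and none passed limma for the knockout difference in cortex (0.0405% of all genes called), striatum at 3 weeks (0.0324%), striatum at 12 weeks (0.0405%), hypothalamus (0.0081%) or the mean over the 4 sets (0.373%). At an unadjusted p under 0.05 there were 7 in cortex (5 lower), or 8.64% of the relatives beside 6.26% of all genes, and 6 in striatum at 3 weeks (2 lower), or 7.41% beside 7.55%. There were 7 at 12 weeks (1 lower), or 8.64% beside 4.40%, and 2 in hypothalamus (none lower), or 2.47% beside 1.76%. For the mean over sets there were 10, of which 5 were lower and 5 higher, or 12.3% of the relatives beside 5.20% of all genes. The median of the relatives for that mean was -0.01 and of all genes -0.03.

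By family, the relatives with the smallest p for the mean over sets had the following log2 differences, none past the threshold. Kctd12, another GABAB receptor subunit, was at -0.31 (limma adjusted p = 0.212) and Kctd16 at 0.05, beside Kctd8 at -0.61. The synaptotagmins Syt4 (-0.31) and Syt2 (0.27) lay on opposite sides of 0, and so did the orphan receptors Gpr52 (-0.26) and Gpr26 (0.18). Spock3 (-0.25) and Smoc2 (0.18) of the SPARC family stood beside Fstl5, and Brinp1 (-0.14) and Brinp2 (0.08) beside Brinp3. Olfml1 (-0.15) and Olfm2 (-0.09) stood beside Olfm3, Mgat5 (0.09) and Mgat4b (0.10) beside Mgat4c, and the peptidase genes Ace (0.13) and Ece1 (0.09) beside Mme. In each family the member of the 9 lay below the relatives tested, except that Syt4 lay below Syt10 (-0.29), and the choice of the 9 genes bears on this order.

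**Figure D4:**
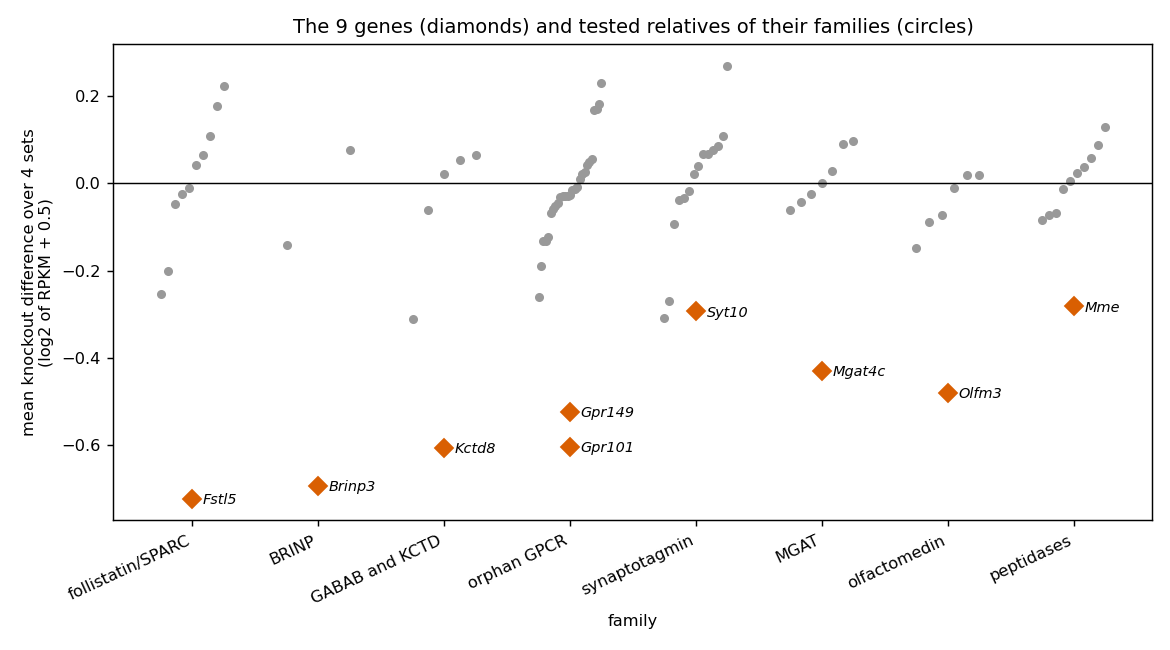
Mean knockout difference over the 4 sets (vertical axis, log2 of RPKM + 0.5) of the 9 genes (diamonds) and of the 81 tested relatives (circles, sorted by value within a family) by family (horizontal axis). The circles run from -0.31 to 0.27, and the diamonds, whose place the choice fixed, from -0.72 to -0.28.

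The 9 genes were also compared by their place in the genome, which the choice did not use. In GENCODE M21 their spans from first to last exon had a median of 222 kb, beside 25.2 kb over all genes tested with a span. Mgat4c (710.0 kb), Fstl5 (635.8 kb), Brinp3 (407.7 kb), Kctd8 (232.4 kb) and Olfm3 (221.6 kb) were among the 10% of genes with the longest spans, and Gpr101 was short (7.09 kb). The median knockout difference of that 10% of genes was -0.07 in cortex, -0.00 in striatum at 3 weeks, 0.05 at 12 weeks and -0.01 in hypothalamus. Fstl5, Gpr149, Olfm3 and Mme lie on chromosome 3, and the others on chromosomes 1, 5, 10, 15 and X. The share of all genes on each chromosome was not computed, so nothing is read from these places.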

How the data were processed

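RNA was measured in 16 libraries of mouse cortex, striatum and hypothalamus (8 groups of 2, grouped by the sample labels). The authors deposited RPKM values for 24176 gene symbols. CASAVA 1.8.2, cutadapt 1.6, TopHat2 and the mouse build mm9 were used, per the submitters' processing notes, and these sources name neither the read counter nor its strand setting. A linear model of log2(RPKM + 0.5) with 8 group means and a variance trend (limma 3.58.1, R 4.3.3) covered the 12348 genes that reached 1 RPKM in 2 or more libraries, with 8 residual degrees of freedom. This scale understates differences at low levels. Benjamini-Hochberg adjustment ran over all genes tested, with a threshold of 0.05, and p-values measure the spread between libraries, which may be technical. The fit was tested on simulated data. With 2 libraries against 2 an exact permutation test cannot go below p = 0.333, so none was used.

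Reads per library (43418477 to 71270685) were estimated from RPKM steps. Of the 144 to 205 single-exon genes under 50 reads in each library, 97.3% to 100% were whole within 0.05 read. Of these whole values 81.5% to 91.0% were even, so the number of independent fragments may be smaller than the number of reads.

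The 9 genes, the relatives, the 11 marker lists and the motifs were chosen with earlier results of these data known. Named are all 9 genes, Rai1, the 2 relatives per family with the smallest p for the mean knockout difference, and the 2 genes most alike to each of the 9. Promoters are from RefSeq (GRCm38.p6, 8 of 9 genes matched), and spans and overlaps from GENCODE M21, whose build is not that of the values. Alternatives were other pseudocounts, filters, scaling, an untrended variance, the compared groups alone, a replicate block and leaving out each library.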

Additional observations from a re-analysis of the deposited data

Results flagged for a closer look

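Mme was singled out because the order of its libraries was not the same in all sets. The ratio of the mean level labelled knockout to that of wild type was 1.09 in striatum at 3 weeks, with both libraries labelled knockout above both of wild type. The nearest libraries there, at 4.20 and 4.19 RPKM, were almost tied, and the log2 difference of Mme was 0.11 (SE 0.13), within 1 SE of 0. With median-ratio scaling of the libraries that log2 difference was larger, at 0.24. The ratio was 0.551 in cortex, 0.632 in striatum at 12 weeks and 0.858 in hypothalamus, with both libraries labelled knockout below both of wild type in each. The difference between sets was not tested, because the choice of the gene used these contrasts.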

How the results depend on the processing

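Of 394 recomputed tests of single genes among the 9 (region and age), 360 kept their direction and their side of the threshold, 22 no longer passed, 3 newly passed and 9 changed sign, all of differences that had not passed. With a library left out, Gpr101 in wild-type cortex against striatum ran from -0.12 to 0.52 and Olfm3 for age in wild type from -0.24 to 0.34. For age in the libraries labelled knockout, Fstl5 ran from -0.21 to 6.29e-05, Gpr101 from -0.20 to 0.068 and Mme from -0.015 to 0.11. With median-ratio scaling Kctd8 for age in wild type was 0.013. The number of the 9 genes passing was 8 for wild-type cortex against striatum and stayed between 6 and 8 when a library was left out. For hypothalamus against striatum it was 9 and stayed between 8 and 9. For age in wild-type striatum it was 4, fell to 2 with no filter on low values (where more genes are tested), and ran from 1 (without replicate 1 of 12 weeks) to 4 with a library left out. For age in the libraries labelled knockout it was 1, became 2 with median-ratio scaling and ran from 0 to 1 with a library left out. In the fit of the compared groups alone the wild-type age difference of Mgat4c did not pass (adjusted p = 0.113).

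Of 464 recomputed knockout differences of single genes, 417 moved by less than the replicate spread, 43 moved by more and 4 reversed, all of Syt10. In striatum at 12 weeks the Syt10 difference was -0.047 with median-ratio scaling, and from -0.060 to 0.15 with a library left out. In hypothalamus it was -0.22 to 0.087 with a library left out, with values above 0 without wild-type replicate 2 or replicate 1 labelled knockout. The median over the 9 genes with a pseudocount of 0.1, which shrinks low values less, was -0.69 in cortex, -0.96 in striatum at 3 weeks and -0.75 at 12 weeks, and with a pseudocount of 1 it was -0.65 in striatum at 3 weeks. With the pseudocount of 0.5 and a library left out, the median in striatum at 3 weeks ran from -0.96 to -0.51. The cause of the other changes was not tested.

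No relative passed with another pseudocount, filter, scaling, variance trend or block, or with a library left out. The number of all genes passing depended more on the settings: for the mean over sets it was 46, and 42 to 55 in those settings that keep every library, but 19 to 55 with a library left out. Same-numbered replicates did not deviate together in every set (correlation -0.34 in cortex, 0.44 and -0.22 in striatum at 3 and 12 weeks, and 0.15 in hypothalamus). The main fit therefore did not pair libraries by number. These values cannot settle whether libraries within a set were paired. With the replicate block over all libraries no count of the 9 genes or of relatives changed by over 1.5 times. Chosen after seeing the data, a replicate block within each set gave 12 genes passing for the mean with numbers as labelled. With numbers crossed in cortex and striatum at 12 weeks it gave 94, with 2 relatives passing in cortex and 3 for the mean. Levels below 1 RPKM rest on few reads, as for Gpr149 in cortex (about 68 reads in the lowest library).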
